A study of Mus musculus with 4 samples.

Results

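The 32 genes described here belong to glycolysis and to the cellular response to low oxygen. They were taken by symbol from the 55357 genes of the deposited matrices, where 1 symbol, Aldoa, stands for 2 identifiers, so that 33 entries were found. The mice had a model of aortic dissection, in which male wild-type animals drank BAPN (β-aminopropionitrile), which blocks the enzymes that cross-link collagen and elastin, at 1 g/kg per day for 4 weeks from 3 weeks of age. AD_ABR mice also received paquinimod, a quinoline-3-carboxamide that binds S100A9, at 10 mg/kg per day into the stomach until the end of the experiment, and gave 2 libraries. AD mice received BAPN without paquinimod and gave 2 libraries, so every group compared carried the injury. The ascending aorta was dissociated and read by droplet single-cell RNA sequencing from the 3′ end of transcripts, in which each captured molecule counts once as a unique molecular identifier (UMI). The labels do not say whether the 2 libraries of a group came from different animals or how many animals went into each, so p-values measure the spread between these libraries, which may be technical.

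Glycolysis splits glucose into pyruvate in the cytosol, and lactate dehydrogenase turns pyruvate into lactate when it is not burned in mitochondria. The flux is set largely by glucose transporters, hexokinase and phosphofructokinase. When oxygen is low, prolyl hydroxylases of the Egln family can no longer mark the protein of Hif1a for destruction, and the stabilised factor binds hypoxia response elements and induces glucose transporters, most glycolytic enzymes, Pdk1, Bnip3, Ddit4, Adm and the collagen prolyl hydroxylases. Inflammatory signals raise Hif1a itself in myeloid cells, and control of the protein is not seen in RNA counts.

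The core of a hypoxia response element is ACGTG or GCGTG. These letters were searched on both strands in RefSeq promoters of build GRCm38.p6, each running from 250 bases before to 50 bases after an annotated start. Promoters were found for 29 of the 32 genes, 38 in all, and Ndrg1, Angptl4 and Slc2a3 had none in the table. A match stood in 32 of the 38, covering 27 of the 29 genes, and in 14380 of the table's 32851 promoters (43.8%). The promoters of the 5 genes that the results turn on most are printed with matches of either strand in capitals, overlapping matches being joined. A match is a string of letters and not a measured binding site.
Hif1a, chr12:73907617-73907916 (+ strand): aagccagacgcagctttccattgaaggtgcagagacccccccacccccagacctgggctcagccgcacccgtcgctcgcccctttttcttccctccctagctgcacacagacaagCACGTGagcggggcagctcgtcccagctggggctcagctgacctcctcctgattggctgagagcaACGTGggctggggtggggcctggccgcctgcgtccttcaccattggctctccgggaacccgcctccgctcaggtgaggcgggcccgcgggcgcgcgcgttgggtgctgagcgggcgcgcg
Hk2, chr6:82774405-82774704 (− strand): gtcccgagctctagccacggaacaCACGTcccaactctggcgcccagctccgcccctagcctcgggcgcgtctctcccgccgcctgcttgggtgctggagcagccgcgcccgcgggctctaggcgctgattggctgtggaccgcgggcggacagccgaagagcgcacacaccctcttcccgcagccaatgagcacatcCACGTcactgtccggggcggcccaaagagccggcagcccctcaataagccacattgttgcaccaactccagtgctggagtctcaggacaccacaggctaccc
P4ha1, chr10:59323046-59323345 (+ strand): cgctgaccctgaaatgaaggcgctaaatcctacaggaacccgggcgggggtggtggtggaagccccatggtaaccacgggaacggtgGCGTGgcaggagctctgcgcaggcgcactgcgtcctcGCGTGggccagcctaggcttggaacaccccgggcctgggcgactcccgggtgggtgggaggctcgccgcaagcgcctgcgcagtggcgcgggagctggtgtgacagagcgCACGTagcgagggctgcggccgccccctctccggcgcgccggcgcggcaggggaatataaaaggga
P4ha2, chr11:54100674-54100973 (+ strand): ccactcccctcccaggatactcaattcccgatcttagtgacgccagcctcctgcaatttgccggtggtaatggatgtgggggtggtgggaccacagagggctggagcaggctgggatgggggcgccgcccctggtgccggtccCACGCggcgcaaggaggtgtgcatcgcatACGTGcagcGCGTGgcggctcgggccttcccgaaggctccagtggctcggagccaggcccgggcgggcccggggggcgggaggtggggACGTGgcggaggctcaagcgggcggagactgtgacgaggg
Ddit4, chr10:59951721-59952020 (− strand): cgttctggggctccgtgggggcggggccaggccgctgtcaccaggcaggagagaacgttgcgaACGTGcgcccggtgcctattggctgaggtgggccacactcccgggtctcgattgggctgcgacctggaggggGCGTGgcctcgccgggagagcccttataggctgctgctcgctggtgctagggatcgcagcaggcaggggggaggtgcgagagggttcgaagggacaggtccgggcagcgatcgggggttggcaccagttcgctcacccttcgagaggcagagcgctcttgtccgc
The 5 windows held 3 matches in Hif1a, 2 in Hk2, 3 in P4ha1, 4 in P4ha2 and 2 in Ddit4.

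After filtering, 8451 and 9872 cells remained in the AD_ABR libraries and 9154 and 9782 in the AD libraries, and any 2 libraries shared 22 to 38 barcodes. The cells fell into 31 clusters. Marker genes grouped them into classes, written with the ending -like, and clusters without a class keep their number. The labelled tissue was borne out by smooth muscle-like cells (3478 and 2805 in AD_ABR, 872 and 1909 in AD), fibroblast-like cells (2481 and 3762, against 1125 and 2441) and endothelial-like cells (238 and 275, against 197 and 478). Median depth was 9452 and 8208 UMIs per cell in AD_ABR, against 5268 and 7185 in AD. Of all UMIs, 1.83 and 1.37% in AD_ABR belonged to the ribosomal RNA-like gene Rn18s-rs5, against 5.34 and 3.23% in AD. The first AD library stood apart, with 1634 neutrophil-like cells against 10 to 232 in the other libraries.

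To compare AD_ABR with AD, UMIs were added up in each library over all kept cells and over each class with at least 50 cells in every library. Levels are CPM, the counts of a gene scaled to 1e+06 UMIs of the summed cells, and fold changes are after library normalization, so they can differ slightly from the ratio of the CPM. A gene passed at an adjusted p below 0.05 over all genes tested in the class. Hif1a was the gene that fell most widely, passing in 6 of the 11 comparisons, whereas the set's enzymes from Aldoa to Ldha passed in none. In smooth muscle-like cells 31 of the 32 genes had enough counts to be tested. Of these 2 rose and 7 fell, where 7.07% of all genes tested rose and 8.24% fell (15.3% together). In fibroblast-like cells 2 of 31 fell, where 1.65% of all genes fell and 3.04% passed in either direction. In endothelial-like cells 1 rose and 1 fell of 29, where 1.41% of all genes rose and 3.77% fell (5.19% together). Among macrophage-like cells none of 31 passed (0.373% of all genes did, and 9 of the 31 had an unadjusted p below 0.05, as did 15.9% of all genes), and among dendritic-like cells none of 27 (1.59% of all genes, with 6 of 27 and 13.3% of all genes at an unadjusted p below 0.05).

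Of the other populations with enough cells, 4 clusters had too few or too mixed markers for a name. In cluster 5, led by Prss12 and Tnfrsf11b, 2 of 31 fell, where 0.583% of all genes fell and 1.02% passed. In cluster 12, led by Rgs5, 1 of 30 fell, where 1.34% of all genes fell and 2.34% passed. None passed among 29 genes in cluster 13, led by Col10a1 (0.087% of all genes), among 19 in cluster 17, led by Gm37376 and Gm42639 (0.244%), or among 23 in Schwann-like cells (0.145%). At an unadjusted p below 0.05 there were 1, 5 and 2 genes in those last 3 populations, where 8.38, 9.66 and 10% of all genes were. Outside smooth muscle-like cells the counts rested on 1 or 2 genes. The counts moved with single libraries, and so did the share of all genes that passed. Among smooth muscle-like cells 4 genes passed without the second AD library (17.7% of all genes), without the first AD_ABR library (10.8%) and without the second (6.47%). In fibroblast-like cells 9 passed without the second AD library (12.2%) and 1 without the second AD_ABR library (2.81%). In endothelial-like cells 5 passed without the first AD library (8.51%) and 5 without the second (16.7%), whereas none did without the first or second AD_ABR library (0.709 and 0.501%). In macrophage-like cells 7 passed without the first AD library (8.72%) and 15 without the second (24.4%). In dendritic-like cells 4 passed without the second AD library (8.47%) and 1 without the first AD_ABR library (4.09%). The median log2 fold change of the genes tested was −0.02 in smooth muscle-like cells, 0.05 in fibroblast-like cells and −0.09 in endothelial-like cells, beside −0.02, −0.01 and −0.0033 over all genes. It was −0.25 in macrophage-like cells and −0.41 over all kept cells, beside −0.01 and −0.02.

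**Figure D1:**
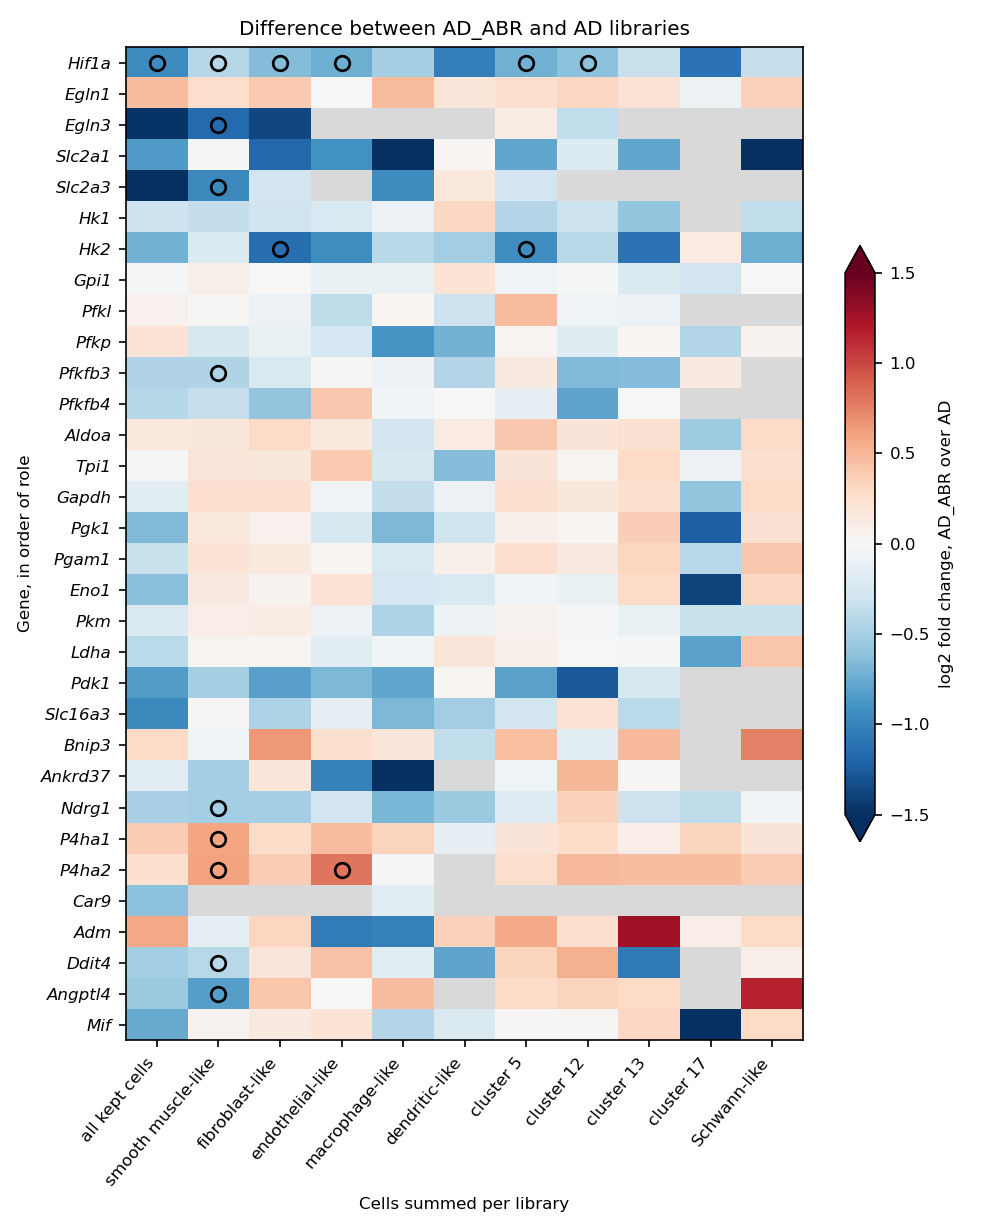
Log2 fold change of AD_ABR over AD (colour, clipped at 1.5 in either direction) for each of the 32 genes (rows, in order of role) in all kept cells and 10 classes or clusters (columns). Circles mark an adjusted p below 0.05, grey marks genes with too few counts to test, and Hif1a is blue in every column with a circle in 6 of them.

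Hif1a, the oxygen-labile subunit of the hypoxia-inducible factor, fell in 5 classes and clusters and over all kept cells. It stood in smooth muscle-like cells at 153 and 130 CPM in AD_ABR, against 205 and 195 CPM in AD. The groups did not overlap, and the log2 fold change was −0.42 ± 0.12 (SE, adjusted p = 0.0211). Fibroblast-like cells had 88.5 and 90.3 CPM in AD_ABR, against 138 and 157 CPM in AD, a log2 fold change of −0.65 ± 0.12 (adjusted p = 0.0369). Endothelial-like cells had 79.7 and 79.9 CPM in AD_ABR, against 134 and 125 CPM in AD (−0.74 ± 0.14, adjusted p = 0.0108). In cluster 5 the values were 75.4 and 75.8 CPM in AD_ABR, against 126 and 124 CPM in AD (−0.72 ± 0.13, adjusted p = 0.0202). In cluster 12 they were 76.7 and 76.0 CPM in AD_ABR, against 130 and 101 CPM in AD (−0.61 ± 0.16, adjusted p = 0.0357).

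Myeloid classes did not pass for Hif1a. Dendritic-like cells had 108 and 79.0 CPM in AD_ABR, against 215 and 138 CPM in AD (−1.04 ± 0.25, adjusted p = 0.0573). Macrophage-like cells had 95.3 and 77.7 CPM in AD_ABR, against 118 and 115 CPM in AD (−0.49 ± 0.18, adjusted p = 0.253). Both AD_ABR libraries were below both AD libraries in 17 of the 19 classes and clusters with at least 10 cells in every library. Cluster 13 and cluster 21 were the other two, in which the groups overlapped. All comparisons use the same 4 libraries, so the classes do not count as separate evidence. A difference of the Hif1a change between classes did not pass: the difference of log2 fold changes was −0.24 ± 0.13 for fibroblast-like minus smooth muscle-like cells (adjusted p = 0.384), −0.31 ± 0.14 for endothelial-like minus smooth muscle-like cells (adjusted p = 0.258) and −0.04 ± 0.16 for macrophage-like minus smooth muscle-like cells (adjusted p = 0.947).

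The passing of Hif1a was lost in several alternatives. Without the first AD_ABR library its adjusted p was 0.099 in fibroblast-like cells and 0.22 in endothelial-like cells. Without the second it was 0.0885 and 0.226 there and 0.335 in smooth muscle-like cells. The log2 fold change lay between −0.73 and −0.31 in those fits. The call in fibroblast-like cells was lost also with doublets kept (−0.51, adjusted p = 0.106) and at a mitochondrial share below 10% (−0.46, adjusted p = 0.125). Both settings clustered the cells anew, and a cluster led by Fmod (3065 and 3267 cells) then had no class name. At the lower mitochondrial share a cluster led by Adamtsl2 (2583 cells) had none either. The fibroblast-like class there was therefore a different set of cells. Without the first AD library, which stood apart, Hif1a differed by −0.42, −0.76 and −0.71 in smooth muscle-like, fibroblast-like and endothelial-like cells.

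**Figure D2:**
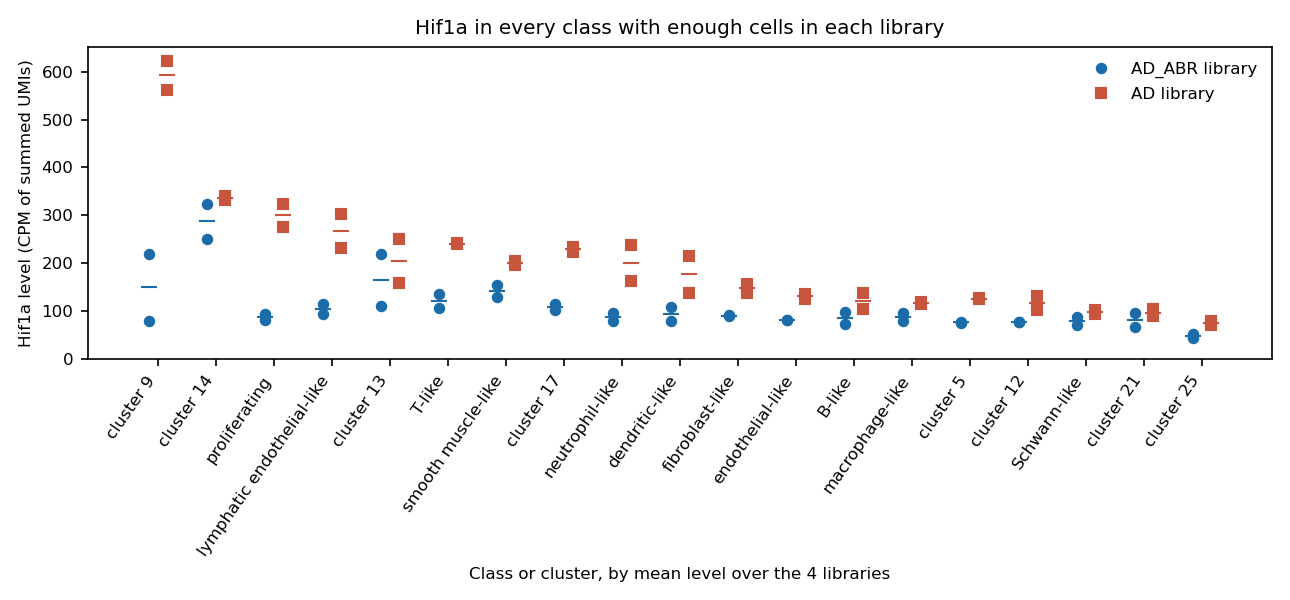
Hif1a level in CPM of summed UMIs (vertical axis, from 0) in the 19 classes and clusters with at least 10 cells in every library, in order of mean level, with AD_ABR libraries as blue circles left of the AD libraries as red squares and a bar at each mean of 2. Both circles lie below both squares in 17 of the 19, and cluster 9 shows the widest gap.

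In smooth muscle-like cells the genes that rose were both collagen prolyl 4-hydroxylases of the set, the enzymes that hydroxylate proline in new collagen chains. P4ha2 had 71.2 and 69.8 CPM in AD_ABR, against 48.6 and 49.0 CPM in AD (log2 fold change 0.60 ± 0.11, adjusted p = 0.00192). P4ha1 had 173 and 137 CPM in AD_ABR, against 113 and 104 CPM in AD (0.59 ± 0.12, adjusted p = 0.00409). Neither gene's groups overlapped. The class joined cluster 0, led by Myh11 and Itih4, cluster 3, led by Igfbp2 and Acta2, and the small cluster 24. P4ha2 rose in clusters 0 and 3 taken alone (0.60 and 0.46, adjusted p = 0.00349 and 0.0477), as did P4ha1 (0.54 and 0.67, adjusted p = 0.0123 and 0.00697). P4ha1 missed the threshold without the first AD_ABR library (0.43, adjusted p = 0.0681), and P4ha2 passed in every alternative tried.

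Egln3, a prolyl hydroxylase that hypoxia induces and that acts on the Hif1a protein, fell in smooth muscle-like cells. It had 2.95 and 2.50 CPM in AD_ABR, against 4.93 and 7.54 CPM in AD, from 115 and 70 UMIs in AD_ABR and 37 and 119 UMIs in AD (−1.16 ± 0.24, adjusted p = 0.00394). These levels were near the floor. Its AD level was 0.0637 of that of neutrophil-like cells in AD, the class where it was highest. It passed in cluster 0 alone (−1.12, adjusted p = 0.0187) and not in cluster 3 alone (−0.998, adjusted p = 0.21). Without the second AD library the value was −0.73 (adjusted p = 0.105). Egln1, the main hydroxylase of the factor under normal oxygen, had 92.4 and 103 CPM in AD_ABR, against 90.6 and 81.7 CPM in AD, and did not pass (0.26 ± 0.12, adjusted p = 0.131).

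Ndrg1, a stress-responsive gene of growth arrest, stood at 31.2 and 28.8 CPM in AD_ABR, against 54.9 and 37.1 CPM in AD (−0.51 ± 0.14, adjusted p = 0.027). Leaving out the first AD library took its value to −0.26 (adjusted p = 0.249), and leaving out the second AD_ABR library gave −0.47 (adjusted p = 0.0829). Ddit4, an inhibitor of the growth kinase mTORC1, stood at 16.4 and 15.7 CPM in AD_ABR, against 23.6 and 21.7 CPM in AD (−0.41 ± 0.13, adjusted p = 0.0378). Pfkfb3, the kinase whose product activates phosphofructokinase, had 12.9 and 14.95 CPM in AD_ABR, against 18.1 and 21.3 CPM in AD (−0.45 ± 0.14, adjusted p = 0.0437). The groups of these 3 genes did not overlap. In clusters 0 and 3 alone none of the 3 passed, whereas Hif1a passed in both (adjusted p = 0.049 and 0.0174). There Ndrg1 differed by −0.44 and −0.43 (adjusted p = 0.0593 and 0.133) and Ddit4 by −0.23 and −0.61 (0.268 and 0.126). Pfkfb3 differed by −0.35 and −0.64 (0.17 and 0.106). Ddit4 did not pass with doublets kept (−0.31, adjusted p = 0.116) or at a mitochondrial share below 10% (−0.33, adjusted p = 0.108). Ddit4 missed the threshold without any single library, and Pfkfb3 did without each library other than the first AD one.

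The last 2 genes that fell were, like Egln3, near the floor. Slc2a3, the glucose transporter GLUT3, had 1.41 and 1.29 CPM in AD_ABR, against 2.80 and 2.79 CPM in AD, from 21 to 55 UMIs a library (−0.97 ± 0.30, adjusted p = 0.0356). In clusters 0 and 3 alone it differed by −0.89 and −0.95 without passing (adjusted p = 0.0841 and 0.32). Its AD level was 0.0161 of that of neutrophil-like cells in AD, the class where it was highest, and it missed the threshold without any single library. Angptl4, a secreted inhibitor of lipoprotein lipase, had 3.34 and 4.36 CPM in AD_ABR, against 5.06 and 8.55 CPM in AD (−0.82 ± 0.25, adjusted p = 0.0361). In cluster 0 alone it did not pass (−0.54, adjusted p = 0.196). It stood in AD at 0.0265 of its level in cluster 14, its highest class, and its difference was 0.00 in cluster 3 alone and −0.29 without the second AD library (adjusted p = 0.996 and 0.548). It was −0.34 with doublets kept and −0.41 at a mitochondrial share below 10% (adjusted p = 0.342 and 0.253). Under DESeq2, Slc2a3, Pfkfb3, Ddit4 and Angptl4 did not pass in this class (adjusted p = 0.176, 0.175, 0.146 and 0.124).

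Among marker sums in smooth muscle-like cells, those of neutrophils, proliferation and muscle differed between the groups without overlap, and that of macrophages overlapped. The summed level of 12 neutrophil markers was 23.5 and 19.9 CPM in AD_ABR, against 78.9 and 27.9 CPM in AD, with 2 of the 12 at 0 in each library. The sum of 15 macrophage markers was 94.1 and 113 CPM in AD_ABR, against 112 and 92.1 CPM in AD, with none at 0. The sum of 10 proliferation markers was 15.9 and 19.4 CPM in AD_ABR, against 33.4 and 31.6 CPM in AD, with none at 0. The sum of 10 cardiac or skeletal muscle markers was 129 and 181 CPM in AD_ABR, against 327 and 221 CPM in AD, with 0 and 1 of them at 0 in AD_ABR and 2 and 2 in AD. The class's own 12 smooth muscle markers summed to 51179 and 55333 CPM in AD_ABR, against 42144 and 47315 CPM in AD, with none at 0. Rn18s-rs5 took 2.04 and 1.60% of the class's UMIs in AD_ABR, against 6.20 and 4.08% in AD. Their part in these differences was not tested.

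Other genes followed in every class did not pass here. Slc2a1, the glucose transporter GLUT1, had 33.4 and 28.4 CPM in AD_ABR, against 32.4 and 33.5 CPM in AD (−0.02 ± 0.12, adjusted p = 0.933). Hk2, an inducible hexokinase, had 90.9 and 81.4 CPM in AD_ABR, against 103 and 107 CPM in AD (−0.21 ± 0.11, adjusted p = 0.217). Pdk1, which limits the burning of pyruvate in mitochondria, had 5.83 and 4.76 CPM in AD_ABR, against 8.39 and 7.54 CPM in AD (−0.50 ± 0.19, adjusted p = 0.0766). Ldha, Adm, Bnip3 and Mif had log2 fold changes of 0.05, −0.13, −0.07 and 0.05 with SEs of 0.11 to 0.17. Of the 31 genes tested, both AD_ABR libraries stood above both AD libraries for 8 and below them for 12, where 23.4 and 37.9% of all genes did.

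**Figure D3:**
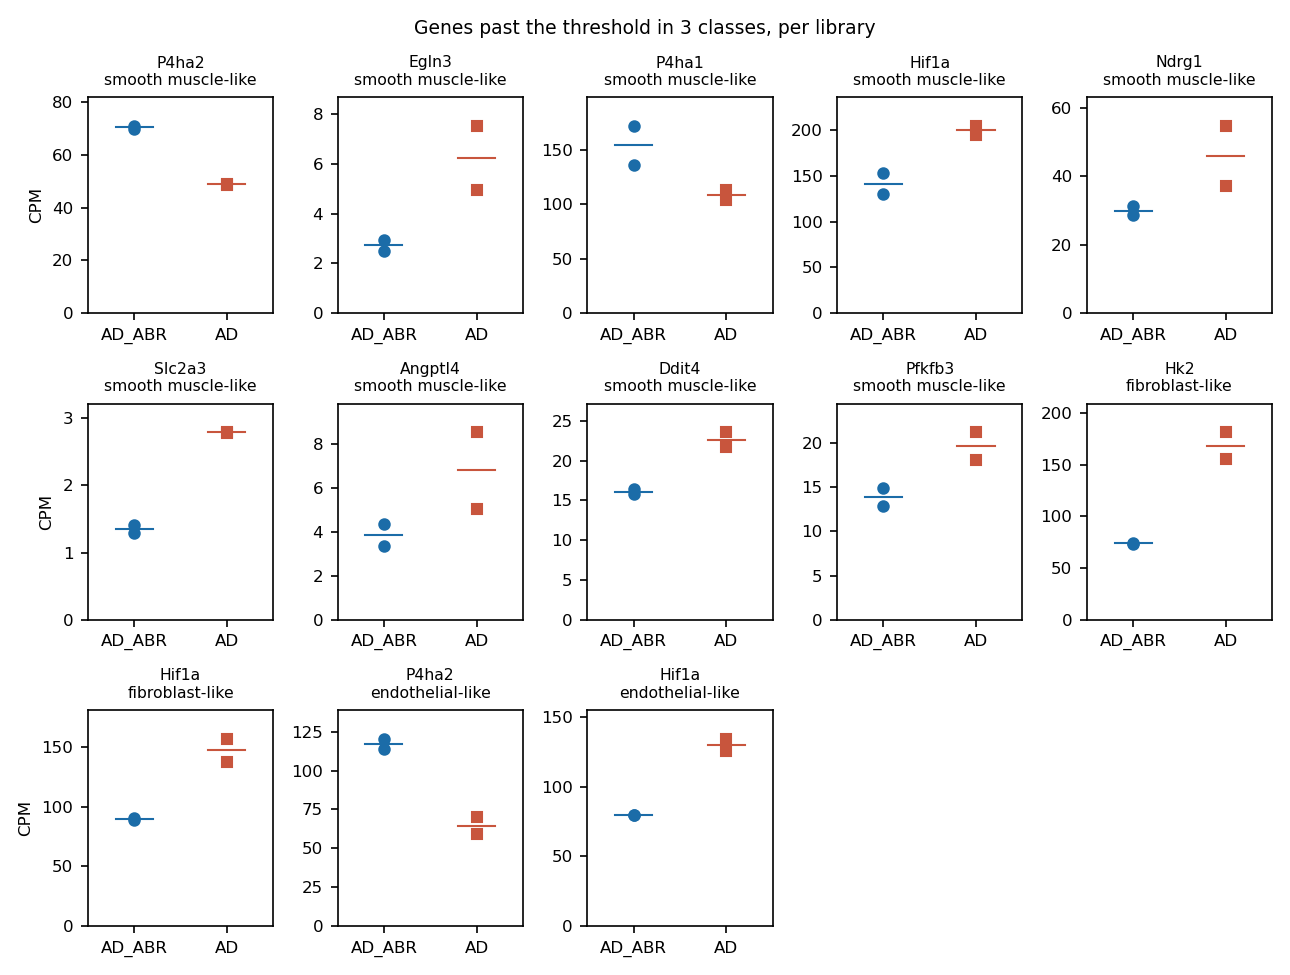
Level in CPM (vertical axes, each from 0) of the 13 gene and class pairs past the threshold in smooth muscle-like, fibroblast-like and endothelial-like cells, with AD_ABR libraries as blue circles left, AD libraries as red squares right and a bar at each mean of 2. P4ha1 and P4ha2 are higher in AD_ABR and the others lower, with no overlap in any panel.

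In fibroblast-like cells Hk2 fell beside Hif1a. Hk2 phosphorylates glucose and so traps it in the cell, and it had 74.2 and 73.4 CPM in AD_ABR, against 156 and 182 CPM in AD (−1.13 ± 0.13, adjusted p = 0.0121). The class joins 3 clusters in unequal parts. Cluster 1, led by Fmod and Cpz, was its largest cluster in both AD_ABR libraries (1282 and 1690 cells), and cluster 2, led by C3 and Pi16, was the largest in both AD libraries (541 and 1328 cells). Within single clusters Hk2 did not pass: it differed by −0.47 in cluster 1, −0.99 in cluster 2 and −0.47 in cluster 4 (adjusted p = 0.208, 0.0636 and 0.19). Hif1a differed by −0.63, −0.23 and −0.71 in the same clusters (adjusted p = 0.0987, 0.516 and 0.0352). Hk2 fell also in cluster 5, at 29.8 and 27.7 CPM in AD_ABR, against 44.7 and 63.6 CPM in AD (−0.94 ± 0.18, adjusted p = 0.0223).

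Several fibroblast genes stood near the threshold. Slc2a1 had 9.23 and 8.13 CPM in AD_ABR, against 26.7 and 15.3 CPM in AD (−1.18 ± 0.25, adjusted p = 0.0612). Bnip3, a receptor that directs mitochondria to autophagy, had 18.6 and 22.1 CPM in AD_ABR, against 12.1 and 14.8 CPM in AD (0.65 ± 0.16, adjusted p = 0.0662). Ndrg1 had 90.7 and 93.3 CPM in AD_ABR, against 131 and 141 CPM in AD (−0.50 ± 0.11, adjusted p = 0.0546). None of these groups overlapped. Adm, the vasodilator peptide adrenomedullin, had 142 and 159 CPM in AD_ABR, against 94.2 and 156 CPM in AD (0.33 ± 0.25, adjusted p = 0.472). Ddit4, Pfkfb3, Ldha, Pdk1 and Mif had log2 fold changes of 0.18, −0.23, 0.03, −0.82 and 0.14 and did not pass. The summed neutrophil markers were 30.4 and 20.8 CPM in AD_ABR, against 147 and 56.0 CPM in AD, with 2 of 12 at 0 in each library. The summed macrophage markers were 138 and 153 CPM in AD_ABR, against 241 and 135 CPM in AD, with at most 1 of 15 at 0. Rn18s-rs5 took 1.32 and 1.01% of UMIs in AD_ABR, against 4.80 and 2.87% in AD. Their part was not tested.

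Endothelial-like cells shared the fall of Hif1a and a rise of P4ha2. P4ha2 had 121 and 114 CPM in AD_ABR, against 59.4 and 69.9 CPM in AD (0.81 ± 0.16, adjusted p = 0.0103), and P4ha1 had 106 and 104 CPM, against 70.2 and 77.7 CPM in AD, without passing (0.46 ± 0.15, adjusted p = 0.104). The P4ha2 call was lost without either AD_ABR library (adjusted p = 0.188 and 0.143). Slc2a1 had 10.9 and 13.5 CPM in AD_ABR, against 28.2 and 18.1 CPM in AD (−0.91 ± 0.28, adjusted p = 0.0879). Adm had 7.89 and 8.61 CPM in AD_ABR, against 11.4 and 20.3 CPM in AD (−1.05 ± 0.34, adjusted p = 0.0949). Ddit4 had 75.9 and 79.5 CPM in AD_ABR, against 61.2 and 51.7 CPM in AD (0.44 ± 0.16, adjusted p = 0.142). Pfkfb3, known for driving glycolysis in sprouting endothelium, had 88.3 and 73.0 CPM in AD_ABR, against 70.8 and 83.5 CPM in AD, and its groups overlapped (0.01 ± 0.17, adjusted p = 0.974). Hk2 was low in the class, at 2.26 and 2.05 CPM in AD_ABR, against 4.20 and 3.93 CPM in AD (−0.93 ± 0.54, adjusted p = 0.36), while Hk1 stood at 42.2 to 58.2 CPM over the 4 libraries. Ldha, Pdk1, Bnip3 and Mif differed by −0.16, −0.68, 0.24 and 0.20 and did not pass. The summed neutrophil markers were 49.6 and 25.4 CPM in AD_ABR, against 207 and 23.6 CPM in AD, with 4 and 6 of 12 at 0 in AD_ABR and 1 and 6 in AD. The summed macrophage markers were 121 and 153 CPM in AD_ABR, against 149 and 134 CPM in AD, with 1 to 3 of 15 at 0. Rn18s-rs5 took 2.33 and 1.77% of the class's UMIs in AD_ABR, against 6.21 and 4.32% in AD. Their part was not tested.

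Macrophage-like cells came from different clusters in different libraries. Cluster 7, led by Folr2 and Cd163, held 400 and 877 of the 422 and 928 cells in AD_ABR and 442 of 531 cells in the second AD library. In the first AD library cluster 11, led by Cd72 and Cx3cr1, held 953 of 1065 cells. Within this class 26 of the 31 genes tested had a log2 fold change below 0, and both AD_ABR libraries stood below both AD libraries for 13 of the 31 and above them for 2, where 20.4 and 27.2% of all genes did. Slc2a1 had 11.4 and 12.1 CPM in AD_ABR, against 46.4 and 26.1 CPM in AD (−1.70 ± 0.33, adjusted p = 0.0948), and it passed in cluster 7 alone (−1.53, adjusted p = 0.00336). Its value was −1.15 and −2.04 without the first and second AD library, and −1.64 and −1.75 without the first and second AD_ABR library. Whether it passed depended on which group lost a library. With the replicate number as a block it did not pass (−1.605, adjusted p = 0.106). Pfkp, a phosphofructokinase subunit, had 45.5 and 50.9 CPM in AD_ABR, against 85.5 and 85.7 CPM in AD (−0.88 ± 0.17, adjusted p = 0.0844). The class's own 15 macrophage markers summed to 38705 and 40313 CPM in AD_ABR, against 22641 and 25447 CPM in AD, with none at 0. The 12 neutrophil markers summed to 117 and 96.2 CPM in AD_ABR, against 230 and 151 CPM in AD, with 4 and 2 of them at 0 in AD_ABR and 1 and 1 in AD. Rn18s-rs5 took 2.98 and 1.94% of the class's UMIs in AD_ABR, against 7.96 and 5.29% in AD. Their part was not tested.

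The direction of Ddit4 in macrophage-like cells depended on which library was left out. It had 17.9 and 34.5 CPM in AD_ABR, against 46.2 and 8.37 CPM in AD, and the groups overlapped (−0.16 ± 0.80, adjusted p = 0.945). Without the first AD library the difference was 1.71 (adjusted p = 1.62e-06), and without the second it was −0.81 (adjusted p = 0.000305), so the call ran in opposite directions. It was 0.23 without the first AD_ABR library and 0.11 with the replicate number as a block, neither passing, and 1.52 in cluster 7 alone (adjusted p = 0.0323). Hk2, Pfkfb3, Ldha, Pdk1, Adm, Bnip3 and Mif differed by −0.42, −0.09, −0.04, −0.77, −1.01, 0.18 and −0.44 and did not pass. When clusters were drawn more coarsely, at Leiden resolution 0.5, the class took in cells led by Arg1, 15 of its genes passed, where 8.25% of all genes did, and Hif1a differed by −1.99 (adjusted p = 0.00106). In dendritic-like cells Slc2a1, Hk2, Pfkfb3, Ldha, Pdk1, Ddit4, Adm, Bnip3 and Mif differed by 0.02, −0.53, −0.44, 0.18, 0.02, −0.79, 0.35, −0.37 and −0.22, and none passed. The 15 macrophage markers summed to 3784 and 3059 CPM in the dendritic-like cells of AD_ABR, against 1191 and 977 CPM in AD, with none at 0. Rn18s-rs5 took 1.64 and 1.25% of that class's UMIs in AD_ABR, against 7.54 and 4.57% in AD. Their part was not tested.

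None of the set's enzymes that carry carbon from fructose bisphosphate to lactate passed in any class. Eno2, from the further glycolysis list, did pass, as given below. The log2 fold changes in smooth muscle-like cells of Aldoa, Tpi1, Gapdh, Pgk1, Pgam1, Eno1, Pkm and Ldha ran from 0.05 to 0.24 with SEs of 0.11 to 0.12. In fibroblast-like cells they ran from 0.03 to 0.30, and in endothelial-like cells from −0.24 to 0.39. All 8 were below 0 in macrophage-like cells, from −0.67 for Pgk1 to −0.04 for Ldha, with adjusted p-values of at least 0.155. Ldha, which makes lactate, had 186 and 194 CPM in smooth muscle-like cells of AD_ABR, against 192 and 195 CPM in AD. Gapdh, Eno1 and Mif share sequence near their 3′ end with other genes (88.0, 70.7 and 53.5% of 60-base windows in the last 500 transcript bases), so reads of near-identical copies may be missing from or added to their counts, and their values are uncertain. Pgk1 (5.22%) and Gpi1 (0.907%) are touched less. Hif1a overlaps Gm49321, Pfkfb3 overlaps Gm37975, Pkm overlaps Gm49759, Slc2a1 overlaps Mir1957a and Slc2a3 overlaps Gm4482 on the same strand. These are overlaps of whole gene spans, and reads within a shared stretch may not be told apart. The last 500 bases of the transcript checked for each member of these pairs shared no 60-base window with another gene.

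Direct tests of the difference between classes passed for 3 genes. Hk2 had the more negative change in fibroblast-like cells, and fibroblast-like minus smooth muscle-like cells gave a difference of log2 fold changes of −0.93 ± 0.12 (adjusted p = 0.000493), where 4.38% of all genes passed this test. The fibroblast-like clusters contributed in unequal parts, and in clusters 1, 2 and 4 alone, as given above, Hk2 differed between AD_ABR and AD by −0.47, −0.99 and −0.47 without passing. Angptl4 differed the other way between these classes, by 1.16 ± 0.17 (adjusted p = 0.00103). Its fibroblast level was 119 and 141 CPM in AD_ABR, against 67.6 and 135 CPM in AD, where the groups overlapped. Its difference between the classes did not pass with doublets kept (0.63, adjusted p = 0.259) or at a mitochondrial share below 10% (0.80, adjusted p = 0.21). The fibroblast-like class was a different set of cells in both settings, as given above. Ddit4, which fell in smooth muscle-like cells, had a difference of 0.60 ± 0.16 for fibroblast-like minus smooth muscle-like cells (adjusted p = 0.0491) and 0.86 ± 0.17 for endothelial-like minus smooth muscle-like cells (adjusted p = 0.00303), where 4.25% of all genes passed the endothelial test. The difference of Hk2 passed in every alternative run. That of Ddit4 was lost between fibroblast-like and smooth muscle-like cells without the second AD library (adjusted p = 0.425) and without either AD_ABR library (0.105 and 0.282). It was lost there also under DESeq2 (0.387), at a mitochondrial share below 10% (0.275) and with the list genes used in clustering (0.0744). Between endothelial-like and smooth muscle-like cells it was lost without either AD_ABR library (0.0921 and 0.0901), under DESeq2 (0.152) and with doublets kept (0.0672). None of the 32 genes passed for macrophage-like minus smooth muscle-like cells, where 0.218% of all genes did.

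Levels across cell types were led most often by cluster 9. Cluster 9 was led by Arg1, Ppbp, Cxcl3 and Pf4, and 14 macrophage markers were detected in it. Its leading genes held a platelet marker, Ppbp, and none of the macrophage list, so it has no name here. It held 22 and 33 cells in AD_ABR (0.260 and 0.334% of kept cells), against 723 and 429 in AD (7.90 and 4.39%). By mean CPM over the 4 libraries it was the highest of 19 classes and clusters for 7 of 31 genes, all but Car9, which had 173 UMIs in total. Those were Hif1a, Aldoa, Gapdh, Pgk1, Pgam1, Eno1 and Pkm. It was second for Slc2a1, Gpi1, Tpi1, Slc16a3 and Mif. These means pool both groups, and the highest class was the same in AD_ABR alone and in AD alone for 14 of the 31 genes. In AD alone cluster 9 led for 8 genes, Tpi1 and Gpi1 among them, whereas Gapdh was highest in proliferating cells, Bnip3 in neutrophil-like cells, P4ha1 in cluster 14 and Ddit4 in T-like cells. In AD_ABR alone cluster 9 led for 7, and Hif1a was highest in cluster 14. The 32 genes and the pathway lists were left out of the clustering, and the order of levels is given as a description with no test.

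Within cluster 9 Hif1a had 219 and 79.0 CPM in AD_ABR, against 623 and 562 CPM in AD, with too few AD_ABR cells for a test. Pgk1 averaged 285 ± 100.3 CPM (SD, n = 4 libraries) in cluster 9 and 213 ± 56.0 CPM in the proliferating cells next in order, a gap smaller than the spread. Pkm averaged 649 ± 201 CPM there and 452 ± 120 CPM in proliferating cells. Slc2a1 had 34.0 and 43.1 CPM in cluster 9 of AD_ABR, against 152 and 77.1 CPM in AD. Proliferating cells were highest for Tpi1 and Mif, at 281 ± 48.0 and 304 ± 168 CPM.

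Other cell types led single branches of the set by the same pooled means. Neutrophil-like cells, of which AD_ABR had 21 and 10, were highest for Slc2a1, Slc2a3, Pfkfb4, Ankrd37 and Slc16a3, the lactate exporter MCT4, which had 214 and 144 CPM in AD_ABR, against 150 and 204 CPM in AD. Schwann-like cells were highest for Ndrg1, a gene needed for myelin upkeep, at 1341 and 1393 CPM in AD_ABR, against 1606 and 1110 CPM in AD, and for Egln1, Bnip3 and P4ha1. Fibroblast-like cells were highest for Adm (138 ± 30.1 CPM, SD, n = 4) and endothelial-like cells for Pfkfb3 (78.9 ± 8.36 CPM). T-like cells were highest for Pdk1 (45.6 ± 26.9 CPM) and lymphatic endothelial-like cells for Ddit4 and Hk1. Cluster 14, led by Cxcl5 and Lif and holding 14 and 16 cells in AD_ABR, against 332 and 536 in AD, was highest for Ldha, P4ha2 and Angptl4. Cluster 25, led by Irf8 and Clec9a, was highest for Gpi1 and Pfkp, and cluster 17 for Hk2 (225 ± 41.3 CPM). Cluster 17 had a median of 1112 UMIs per cell. Some leads were near ties. P4ha1 averaged 160.1 ± 37.9 CPM in Schwann-like and 159.7 ± 15.5 CPM in fibroblast-like cells. Ldha averaged 422.6 ± 66.3 CPM in cluster 14 and 420.8 ± 56.6 CPM in cluster 25.

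The lowest levels were as uneven. Only genes with a high mean in their highest class are listed here, so the list is not complete. Cluster 25 was lowest for Hif1a, Aldoa, Slc16a3, P4ha1, P4ha2, Adm and Angptl4, and B-like cells were lowest for Tpi1, Gapdh, Pkm, Ldha and Pfkp. Endothelial-like cells were lowest for Slc2a3, Eno1 and Mif, Schwann-like cells for Gpi1 and Pgk1, and lymphatic endothelial-like cells for Hk2. Neutrophil-like cells were lowest for Egln1, T-like cells for Pgam1, cluster 12 for Ndrg1 and smooth muscle-like cells for Ddit4.

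**Figure D4:**
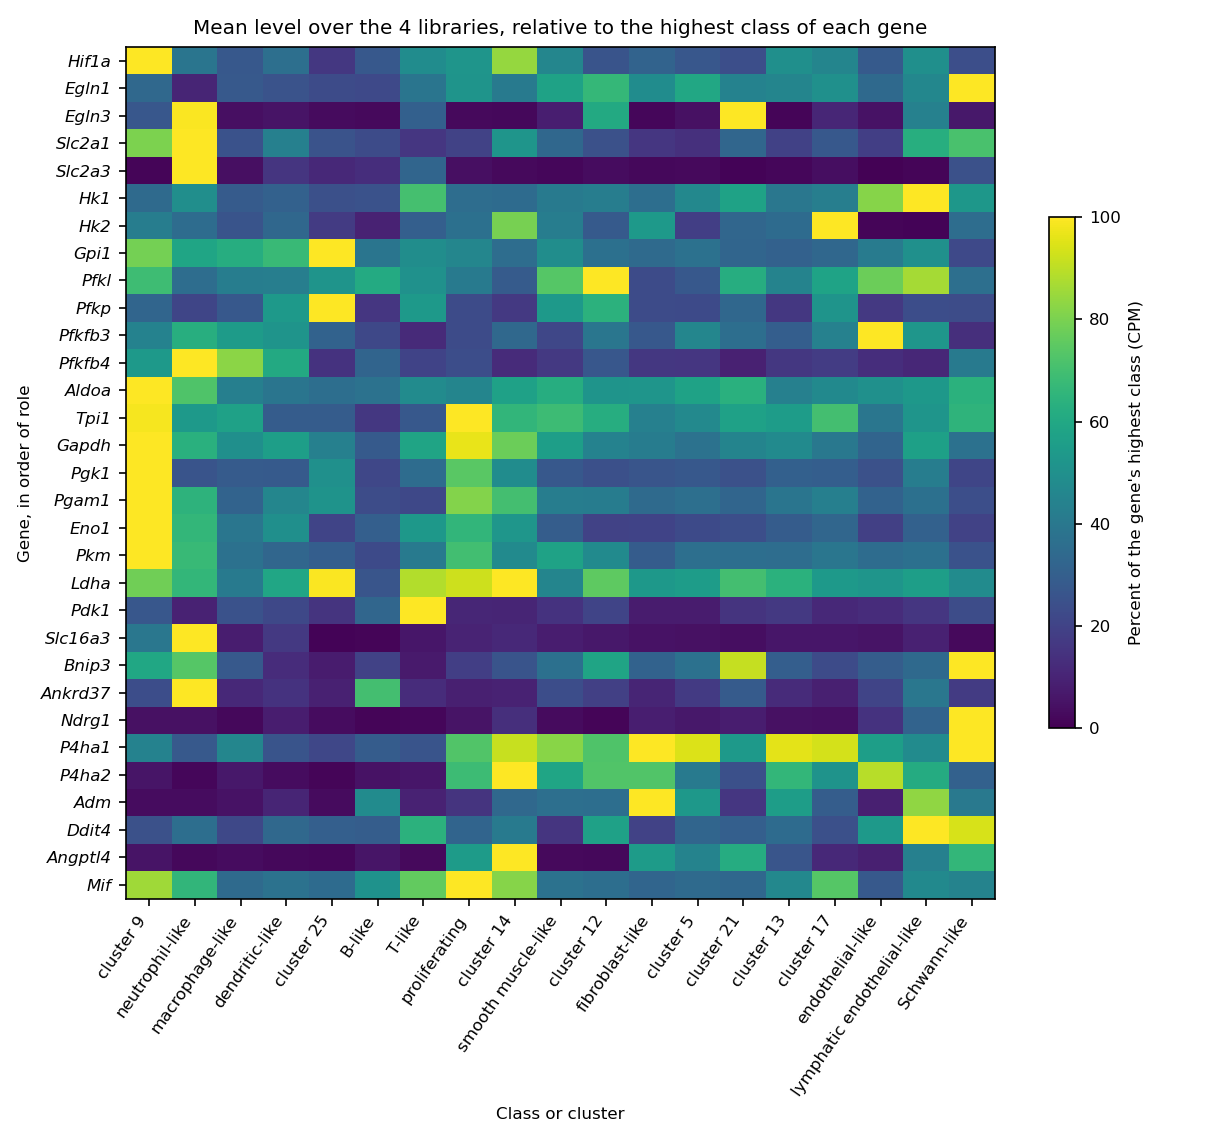
Mean CPM over the 4 libraries of 31 genes (rows, in order of role; Car9 is left out) in 19 classes and clusters (columns), as percent of each gene's highest class (colour, 0 to 100). Cluster 9 is at 100% for 7 genes, neutrophil-like cells for 5 and Schwann-like cells for 4.

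Over all kept cells Hif1a fell as well, at 121 and 101 CPM in AD_ABR, against 237 and 224 CPM in AD (−0.96 ± 0.15, adjusted p = 0.0442). It was the only 1 of 32 genes to pass, where 3.49% of all genes did and 2.46% fell. Without the first or second AD library 2 and 16 genes passed (5.54 and 25.8% of all genes). Without either AD_ABR library no gene passed, whether of the 32 or of all genes tested, with Hif1a at an adjusted p of 0.345 and 0.252 there. For 20 genes, Hif1a among them, both AD_ABR libraries stood below both AD libraries, and for 3 they stood above, where 40.5 and 25.6% of all genes did. Mif, a cytokine of macrophage recruitment, had 110 and 110 CPM in AD_ABR, against 236 and 163 CPM in AD (−0.75 ± 0.19, adjusted p = 0.0798), although it differed by 0.05 in smooth muscle-like and 0.14 in fibroblast-like cells. Slc2a1 had 22.5 and 16.9 CPM in AD_ABR, against 52.6 and 24.1 CPM in AD (−0.84 ± 0.37, adjusted p = 0.186). Hk2 had 73.8 and 66.4 CPM in AD_ABR, against 115 and 131 CPM in AD (−0.71 ± 0.14, adjusted p = 0.0611). It passed without the first AD library (−0.82, adjusted p = 0.0258) and without the second (−0.55, adjusted p = 0.0363). Ldha, Pfkfb3, Pdk1, Ddit4, Adm and Bnip3 differed by −0.41, −0.45, −0.84, −0.51, 0.58 and 0.30 and did not pass.

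The libraries differed in the cells behind these sums. Cluster 9, cluster 14 and neutrophil-like cells together were 0.674 and 0.598% of kept cells in AD_ABR, against 29.4 and 12.2% in AD. They held 1.01 and 1.38% of Hif1a UMIs in AD_ABR, against 38.8 and 28.5% in AD. Of Slc2a1 UMIs they held 1.77 and 1.23% in AD_ABR, against 47.9 and 21.5% in AD. Of all UMIs they held 0.559 and 0.690% in AD_ABR, against 22.4 and 16.9% in AD. Without these 3 populations, an alternative chosen after seeing the data, Hif1a differed by −0.68 (adjusted p = 0.0619) and none of the 32 genes passed.

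**Figure D5:**
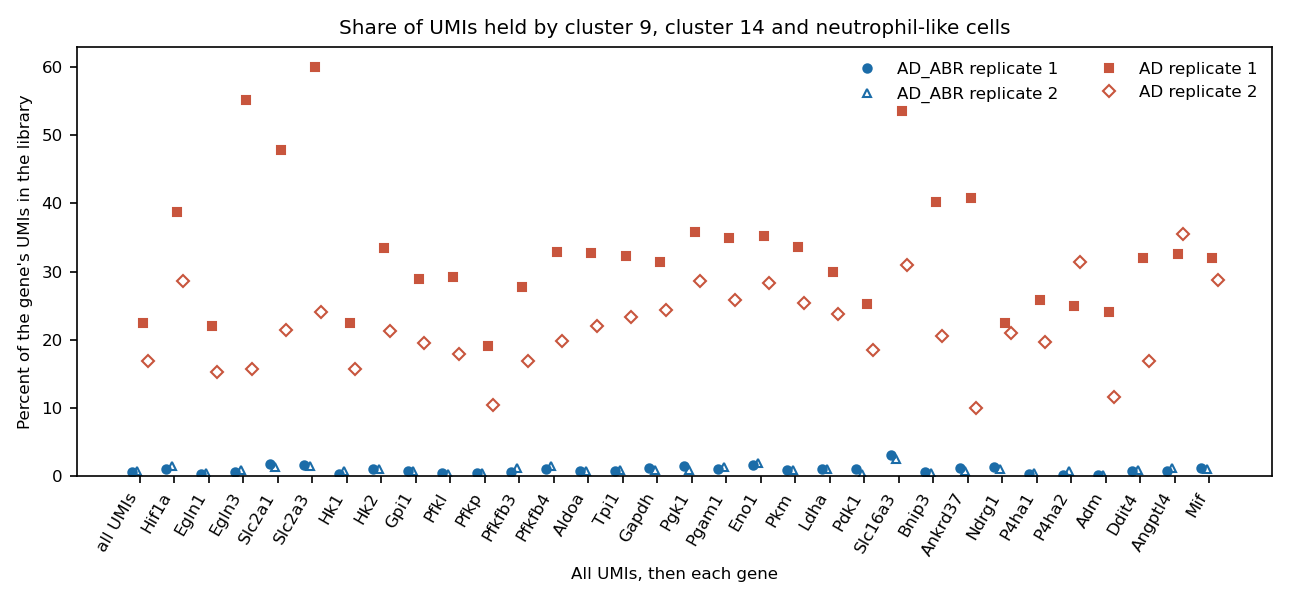
Percent of each gene's UMIs in a library (vertical axis) that came from cluster 9, cluster 14 and neutrophil-like cells together, for all UMIs and 31 genes, with AD_ABR libraries in blue left of the AD libraries in red. AD_ABR libraries lie at 3.08% or below, and the first AD library holds 55.2% for Egln3 and a larger share only for Slc2a3.

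Further genes of the pathways, from 3 lists of genes outside the 32, were tested in the same fits. Of 32 further HIF pathway genes tested in smooth muscle-like cells, 3 rose and 6 fell, where 7.07 and 8.24% of all genes did. The 3 that rose had log2 fold changes of 0.38 (Higd1a), 0.37 (Plod1) and 0.97 (Stc2), with adjusted p-values of 0.0357, 0.0389 and 0.0418, and were named after their values were seen. Bhlhe40, a hypoxia-induced repressor, fell to 24.1 and 22.8 CPM in AD_ABR, against 48.6 and 47.4 CPM in AD (−0.96 ± 0.12, adjusted p = 4.16e-05). Hmox1, which breaks down heme, fell to 14.6 and 15.4 CPM in AD_ABR, against 30.8 and 42.9 CPM in AD (−1.25 ± 0.15, adjusted p = 0.000102). The histone demethylase Kdm3a and the Myc antagonist Mxi1 fell by 0.69 and 0.58 on the log2 scale (adjusted p = 0.00559 and 0.00579). Bhlhe40 and Hmox1 were also the 2 of 26 that fell in endothelial-like cells, where none rose. Of all genes tested there, 3.77% fell and 1.41% rose. Bhlhe40 had 108 and 117 CPM there in AD_ABR, against 310 and 383 CPM in AD (−1.66 ± 0.15, adjusted p = 0.000124).

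Other members of that list passed in other classes. In fibroblast-like cells 1 of 33 rose, Ndufa4l2, a mitochondrial protein that hypoxia induces, at 254 and 228 CPM in AD_ABR, against 133 and 129 CPM in AD (0.95 ± 0.12, adjusted p = 0.0169). Of all genes tested in that class, 3.04% passed in either direction. Ndufa4l2 was among the leading genes of cluster 1, a part of that class. Cluster 1 held 1282 and 1690 cells in AD_ABR, against 195 and 488 in AD, and the part of this mix was not tested. In macrophage-like cells 2 of 26 fell, where 0.373% of all genes passed. Pdgfb, a growth factor for mural cells, was among them and had 57.9 and 58.6 CPM in AD_ABR, against 185 and 160 CPM in AD (−1.63 ± 0.18, adjusted p = 0.0334). That class came from different clusters in different libraries, as given above. In dendritic-like cells 2 of 24 fell, Pdgfb among them (−1.42, adjusted p = 0.0203), where 1.59% of all genes passed. In cluster 12, 3 of 28 fell, where 1.34% of all genes fell. Over all kept cells 2 of 34 fell, Hmox1 (−1.87, adjusted p = 0.0324) and Bhlhe40 (−0.97, adjusted p = 0.0494), where 2.46% of all genes fell. Hmox1 was among the leading genes of cluster 9. That cluster held 0.260 and 0.334% of kept cells in AD_ABR, against 7.90 and 4.39% in AD, and its part was not tested.

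Of further glycolysis and pyruvate genes, 1 rose and 3 fell of 21 in smooth muscle-like cells, where 15.3% of all genes passed. Pdk4, a starvation-responsive relative of Pdk1, had 29.0 and 39.4 CPM in AD_ABR, against 27.6 and 19.6 CPM in AD (0.64 ± 0.18, adjusted p = 0.0377), and it rose over all kept cells (1.34 ± 0.16, adjusted p = 0.0327), the only 1 of 25 to pass there. Of all genes tested over all kept cells, 3.49% passed. Pgm1, Eno2 and Slc16a1 fell in smooth muscle-like cells by 0.52, 0.93 and 0.61 on the log2 scale (adjusted p = 0.017, 0.0281 and 0.0374). Eno2 was the only 1 of 21 to pass in fibroblast-like cells (−1.14, adjusted p = 0.0387), at 3.82 and 3.09 CPM in AD_ABR, against 9.06 and 7.04 CPM in AD. Of all genes tested there, 3.04% passed. None of 14 passed in endothelial-like, of 17 in macrophage-like or of 11 in dendritic-like cells, where 5.19, 0.373 and 1.59% of all genes did. Of 8 pentose phosphate genes, none passed in smooth muscle-like, fibroblast-like, endothelial-like or macrophage-like cells, and Pgd was the 1 that passed over all kept cells (−0.86, adjusted p = 0.049).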

How the data were processed

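The deposited matrices hold raw UMI counts per gene and cell barcode, written by Cell Ranger 7.1.0 per the file headers, whereas the submitters' processing notes name Cell Ranger 6.0, STAR, Seurat 4.0 and GRCm38. Cells with under 200 genes or over 20.0% mitochondrial UMIs were left out, as were the highest doublet scores (0.8% per 1000 barcodes), leaving 37259 of 41399. Cells were clustered with scanpy 1.11.5 and leidenalg 0.10.2 at resolution 1 without the 32 genes or pathway lists, and clusters were named from marker lists. Members and lists were chosen with earlier results of these data known. UMIs were summed per library and class and tested with edgeR 4.0.16 in R 4.3.3 (TMM, quasi-likelihood test, Benjamini-Hochberg over all genes tested), after a simulated-data check. Differences between classes came from an interaction term. Genes past the threshold and Hif1a, Slc2a1, Hk2, Pfkfb3, Ldha, Pdk1, Ddit4, Adm, Bnip3 and Mif were named in the main classes, with at most 4 genes from each further list. Replicate numbers did not pair the libraries, since only 2 numbers exist and the labels tie them to nothing shared. The 3′ end of transcripts was counted, and the share of copied sequence and the overlaps come from a GRCm38 annotation. UMIs per kept library ran from 66197717 to 87522686, and intervals were not computed for single shares. The result of 1 gene of the further pathway lists is not reported here.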

Additional observations from a re-analysis of the deposited data

Results flagged for a closer look

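The change of Hk2 between AD_ABR and AD differed between cell types by the interaction test itself: the log2 fold change in fibroblast-like cells minus that in smooth muscle-like cells was −0.93 (adjusted p = 0.000493). The fibroblast-like clusters contributed in unequal parts, and in clusters 1, 2 and 4 alone Hk2 differed between AD_ABR and AD by −0.47, −0.99 and −0.47 without passing. The same test gave 1.16 for Angptl4 (adjusted p = 0.00103), which did not pass with doublets kept (0.63, adjusted p = 0.259) or at a mitochondrial share below 10% (0.80, adjusted p = 0.21). The fibroblast-like class was a different set of cells in both settings. The test gave 0.60 for Ddit4 (adjusted p = 0.0491), and 6 of the alternatives run ended that call. For endothelial-like minus smooth muscle-like cells it gave 0.86 for Ddit4 (adjusted p = 0.00303), and 4 alternatives ended that call.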

How the results depend on the processing

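Of 917 recomputed values for 71 gene results, 747 kept their direction and side of the threshold, 68 lost and 56 gained a call, and 46 changed sign, and the cause was not tested. Only 236 of the values belonged to the 18 results that passed in the main fit. Of these 236, 167 kept the call, 68 lost it and 1 changed sign. P4ha2 in smooth muscle-like cells passed under every alternative run. The number of genes past the threshold is given with the percent of all genes tested that passed in brackets. Over all kept cells it was 1 (3.49%), and 10 under DESeq2 (18.2%), 4 with no filter on low counts (7.59%), 0 with the replicate number as a block (0.51%), 0 without neutrophil-like cells and clusters 9 and 14 (4.12%), and 0 to 16 without single libraries (at most 25.8%). In smooth muscle-like cells it was 9 (15.3%), and 5 under DESeq2 (9.49%), 4 and 3 in clusters 0 and 3 alone (11.6 and 5.19%), 13 with the block (26.0%) and 4 to 7 without single libraries (6.47 to 17.7%). In fibroblast-like cells it was 2 (3.04%), and 4 under DESeq2 (5.53%), 7 with no filter (8.21%), 5 with the block (10.8%), 1 with doublets kept (0.668%), 1 at a mitochondrial share below 10% (1.25%), 1, 0 and 1 in clusters 1, 2 and 4 alone (0.713, 0.0588 and 0.633%), and 1 to 9 without single libraries (2.24 to 12.2%). In endothelial-like cells it was 2 (5.19%), and 5 with no filter (4.49%), 5 with the block (13.2%) and 0 to 5 without single libraries (0.501 to 16.7%). In macrophage-like cells it was 0 (0.373%), and 1 under DESeq2 (2.02%), 5 with no filter (4.22%), 15 at Leiden resolution 0.5 (8.25%), 4 in cluster 7 alone (4.29%), 0 with the block (0.124%) and 0 to 15 without single libraries (at most 24.4%). In dendritic-like cells it was 0 (1.59%), and 2 with no filter (2.51%), 2 with the block (6.65%), 1 with the list genes used in clustering (1.66%) and 0 to 4 without single libraries (1.18 to 8.47%).

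Genes whose change differed from that in smooth muscle-like cells numbered 3 for fibroblast-like cells (4.38%), and 6 with no filter (4.12%), 1 at a mitochondrial share below 10% (1.6%), 5 at resolution 0.5 (5.14%) and 2 to 5 without single libraries (1.93 to 5.45%). For endothelial-like cells there was 1 (4.25%), and 0 under DESeq2 (0.977%), 3 with no filter (2.78%), 0 with doublets kept (3.12%), 2 at resolution 0.5 (2.55%) and 0 to 5 without single libraries (0.68 to 5.78%). For macrophage-like cells there were 0 (0.218%), and 7 with no filter (2.63%), 12 at resolution 0.5 (4.48%) and 0 to 13 without single libraries (at most 13.6%).

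Log2 fold changes that changed sign were mostly near 0. In smooth muscle-like cells cluster 3 alone gave 0.0041 for Angptl4, 0.043 for Slc2a1, −0.016 for Ldha and 0.017 for Bnip3, cluster 0 alone gave −0.058 for Mif, and no filter gave 0.022 for Slc2a1. Without single libraries Slc2a1 ran from −0.12 to 0.086, Adm from −0.34 to 0.14, Bnip3 from −0.27 to 0.11 and Mif from −0.010 to 0.12 there. In fibroblast-like cells Ldha was −0.080 in cluster 2 alone and ran from −0.068 to 0.17 without single libraries, and Ddit4 from −0.037 to 0.42. In endothelial-like cells Pfkfb3 was −0.060 with doublets kept, −0.011 at a mitochondrial share below 10% and −0.14 at resolution 0.5, where Bnip3 was −0.58 and Mif −0.41, and without single libraries Pfkfb3 ran from −0.12 to 0.18 and Mif from −0.025 to 0.42. In macrophage-like cells resolution 0.5 gave 0.021 for Pfkfb3 and −0.98 for Bnip3, cluster 7 alone gave 0.038 for Pfkfb3, 0.25 for Pdk1 and 1.52 for Ddit4, and the block gave 0.11 for Ddit4. Without single libraries Pfkfb3 ran there from −0.26 to 0.15, Ldha from −0.13 to 0.092, Pdk1 from −1.41 to 0.97, Ddit4 from −0.81 to 1.71 and Bnip3 from −0.049 to 0.37. In dendritic-like cells Slc2a1 was −0.049 with no filter, −0.54 with doublets kept and −0.016 at resolution 0.5, and Pdk1 was −0.047 with no filter and −0.10 with doublets kept. Without single libraries Slc2a1 ran from −0.33 to 0.48, Pdk1 from −0.64 to 1.35 and Adm from −0.56 to 1.09.

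With 2 libraries a group, leaving one out leaves a lone library that is assumed to vary like the others. The correlation of same-numbered libraries' deviations ran from −0.04 to 0.13 over 6 cell groups. Splitting classes into single clusters and removing clusters 9 and 14 were alternatives chosen after seeing the data. Keeping doublets, the lower mitochondrial share, the coarser resolution and the use of list genes each drew the clusters anew. A class could then hold other cells.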
